A study of Mus musculus with 16 samples.

Results

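Of the 39179 genes counted in mouse brain RNA, 5 were examined here. Their counts differed strongly between groups of mice, and each was nearly absent in some mice and clearly present in others. They are *Eno1b*, *Gm6969*, *Gm8730*, *Gm11847* and *Atp6v0c-ps2*. The 5 were picked from their values in these same mice, above all in the comparison of the genotypes at 19 months, so their levels are given as a description and carry no test. In the GENCODE M21 annotation of mouse genome GRCm38, *Eno1b* is a protein-coding gene and the other 4 are processed pseudogenes, among 4407 processed pseudogenes in the table.

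A retrocopy arises when the mRNA of a gene is copied back into DNA and inserted elsewhere in the genome. It therefore lacks the introns of its source gene and starts out with the letters of the mature transcript. Most retrocopies carry no promoter of their own and decay into processed pseudogenes, although some are transcribed from nearby promoters and some encode protein. Because a short read from a source gene can match a young retrocopy equally well, the counts of the pair depend on the few bases that separate them and on how a counting program places reads that match both.

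The mice were wild-type (*MRPS5* WT) or homozygous for the V338Y knock-in mutation of *MRPS5* (MRPS5 V338Y), 4 of each genotype at 3 months and 4 of each at 19 months, with total counts from 6181448 to 19601664 per library. Depth moved with genotype. The median total at 3 and 19 months was 11157809 and 11047919.5 in wild-type mice, and 15789042.5 and 15995066.5 in V338Y mice. Raw counts therefore run higher in the mutants at an equal level. *Mrps5* encodes a protein of the small mitochondrial ribosomal subunit, and V338Y lowers the accuracy of mitochondrial translation. The study calls the knock-in mice C57/BL6, whereas their breeding history, the number of founder lines and the relation of the wild-type mice to the mutants are not given in the sources used here. The labels name brain, and the methods cortex, as the tissue, and markers of neurons, astrocytes, oligodendrocytes and cortex were present in every library. *Mrps5* itself was at 39.4 ± 1.14 CPM (the count scaled by the total of its library in the usual way, with edgeR's TMM factors) in wild-type and 39.3 ± 3.31 CPM in V338Y mice at 3 months, and at 30.2 ± 1.98 and 30.3 ± 1.72 CPM at 19 months (SD, n = 4 each). The methods describe all mice as female. However, the Y-linked *Ddx3y* was at 96.7 to 128 CPM in every 3-month library and at 0 in every 19-month library, and *Xist* was at 0.443 to 1.19 CPM at 3 months and at 705 to 1182 CPM at 19 months. The summed cerebellum markers were at 641 to 1540 CPM in 7 of the 8 libraries at 3 months, at 191 CPM in V338Y mouse 14 and at 126 to 148 CPM at 19 months. Age can therefore not be told apart from these features. At 19 months the summed skeletal muscle markers were at 18.2, 10.7, 74.6 and 10.4 CPM in V338Y mice 17 to 20 and at 4.66 to 6.08 CPM in wild-type mice. The pituitary markers were at 24.7, 25.4, 21.0 and 72.2 CPM in the same V338Y mice and at 70.7 to 113.5 CPM in wild-type mice. Both lists thus moved with genotype, muscle in 4 of 4 mutants and pituitary in 3 of 4, and their part in the results was not tested. The ratios between the genotypes were also computed without V338Y mice 14 and 19.

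The source genes were found by aligning the annotated transcript of each retrocopy to all annotated transcripts. *Gm6969* (ENSMUSG00000066553, chromosome 12, 24638669 to 24639010, minus strand) matched *Cox7a2l*, which encodes a factor that joins respiratory complexes III and IV into supercomplexes. *Eno1b* (ENSMUSG00000059040, chromosome 18, 48045335 to 48048412, plus strand) matched *Eno1*, the glycolytic enolase found in most tissues. The annotated exons of *Eno1b* cover 1877 bases, fewer than its span, so its annotation includes an intron. *Gm8730* (ENSMUSG00000063696, chromosome 8, 102864845 to 102865798, minus strand) matched *Rplp0*, a protein of the ribosomal stalk. *Gm11847* (ENSMUSG00000060989, chromosome 4, 12232833 to 12233951, plus strand) matched *Hnrnpa3*, an RNA-binding protein. *Atp6v0c-ps2* (ENSMUSG00000080242, chromosome 6, 37806086 to 37806550, plus strand) matched *Atp6v0c*, the proteolipid subunit through which the V-ATPase moves protons. All 5 source genes lie on other chromosomes than their copies.

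The copies differed from their source genes by 1 to 12 substitutions, and 2 of them also by a stretch gained or lost. Substitutions are written with the base of the source gene, the position counted from 1 at the 5′ end of the retrocopy's transcript, and the base of the retrocopy. *Gm6969* held 6 bases that the reference *Cox7a2l* lacks, next to the substitution T220A, and a second substitution, C309T, over 342 aligned bases. The stretches around the 6 bases are shown because they hold the largest difference of the pair, with the differing bases in capitals. The piece of *Gm6969* is chr12:24638755-24638834 on the minus strand, and that of *Cox7a2l* is spliced from 2 exons within chr17:83502689-83504124 on the minus strand (GRCm38, GENCODE M21 transcripts).

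Gm6969: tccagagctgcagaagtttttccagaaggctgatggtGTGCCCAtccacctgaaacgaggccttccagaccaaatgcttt
Cox7a2l: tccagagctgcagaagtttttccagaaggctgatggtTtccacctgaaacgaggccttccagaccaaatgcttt

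As background, laboratory mouse strains are known to carry either of 2 alleles of *Cox7a2l* that differ by a short in-frame deletion in the coding sequence, and the reference strain C57BL/6 carries the shorter one. The table holds counts and no base calls, so which allele each of these mice carried was not tested.

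*Gm11847* differed from *Hnrnpa3* by C25T and by the absence of 21 bases in 1 run. The run falls in a repetitive, glycine-rich part of the coding sequence, so its exact placement among the repeats is arbitrary. The 21 bases are in capitals in the line of *Hnrnpa3*, which is spliced from 3 exons within chr2:75662549-75662861 on the plus strand, and the piece of *Gm11847* is chr4:12233448-12233567 on the plus strand.

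Gm11847: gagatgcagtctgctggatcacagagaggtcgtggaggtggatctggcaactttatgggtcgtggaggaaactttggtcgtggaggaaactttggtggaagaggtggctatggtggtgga
Hnrnpa3: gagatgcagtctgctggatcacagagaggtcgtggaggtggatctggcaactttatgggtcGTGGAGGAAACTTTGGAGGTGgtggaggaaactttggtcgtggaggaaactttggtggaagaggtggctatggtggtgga

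*Gm8730* had the most differences, 12 substitutions over 954 bases, of which A390G, A393G and A447T fall into the piece printed here with the differing bases in capitals (*Gm8730* chr8:102865342-102865421, minus strand, and *Rplp0* chr5:115561158-115561237, plus strand). *Atp6v0c-ps2* had the single substitution T111C over 465 bases, also in capitals (*Atp6v0c-ps2* chr6:37806166-37806225, plus strand, and *Atp6v0c* chr17:24164822-24164881, minus strand). These pieces show how little sequence separates such a pair.

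Gm8730: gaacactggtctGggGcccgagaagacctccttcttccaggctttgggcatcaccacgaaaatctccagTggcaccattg
Rplp0: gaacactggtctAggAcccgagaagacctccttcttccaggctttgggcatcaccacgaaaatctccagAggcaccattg
Atp6v0c-ps2: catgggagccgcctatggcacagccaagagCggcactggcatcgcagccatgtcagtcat
Atp6v0c: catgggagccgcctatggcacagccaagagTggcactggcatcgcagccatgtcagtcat

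*Eno1b* differed from *Eno1* by 9 substitutions over 1652 aligned bases, which is 92.2% of its transcript. None of the 5 copies had an early stop codon in the reading frame carried over from the source gene. The frame ran for 434 codons in *Eno1b* and 317 in *Gm8730*, as in their source genes, for 113 codons in *Gm6969* against 111 in *Cox7a2l*, for 372 in *Gm11847* against 379 in *Hnrnpa3*, and over all 155 codons of *Atp6v0c* in *Atp6v0c-ps2*. All 8 coding substitutions of *Eno1b* and 9 of the 12 of *Gm8730* left the encoded amino acid the same.

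**Figure D1:**
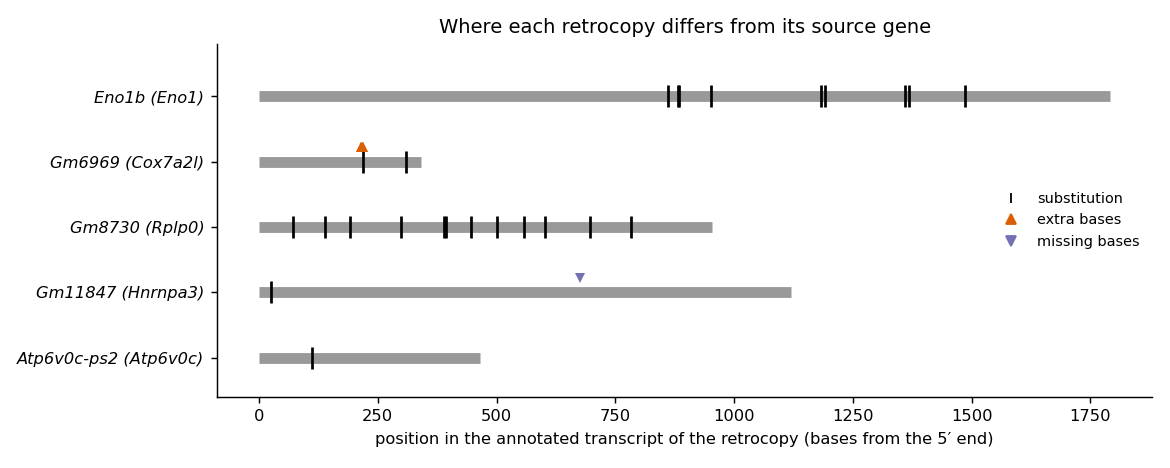
Differences between each retrocopy and the reference transcript of its source gene (in brackets), by position in bases along the annotated transcript of the retrocopy. Black ticks are substitutions (from 1 in *Gm11847* and *Atp6v0c-ps2* to 12 in *Gm8730*), the upward triangle marks the 6 extra bases of *Gm6969*, and the downward triangle the 21 bases missing from *Gm11847*. Bases of *Eno1b* outside the 1652 aligned ones carry no mark.

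The part of a copy that a read can single out was measured with windows of 100 bases, shorter than the single-end reads, taken at every position of its transcript. Of these windows, 63.9% in *Gm8730*, 53.1% in *Gm6969*, 27.3% in *Atp6v0c-ps2*, 26.6% in *Eno1b* and 10.6% in *Gm11847* occurred in no other annotated gene. The remainder of each copy is shared letter for letter with another annotated gene. That gene was the source gene for 89.4% of the windows of *Gm11847*, 72.7% in *Atp6v0c-ps2*, 61.8% in *Eno1b*, 46.9% in *Gm6969* and 9.24% in *Gm8730*. *Gm11847* also had the most relatives, with 41 annotated genes that matched at 80% identity over 70% of its length, whereas *Atp6v0c-ps2* and *Gm6969* had 2 each.

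At 19 months all 5 copies separated the genotypes, 4 of them higher and 1 lower in V338Y mice. Over all 16420 genes tested at 19 months, 9.31% had groups of 4 mice that did not overlap, and since that comparison chose the 5 copies, nothing is read from the count. At 3 months *Gm11847* alone separated the genotypes, beside 3.2% of the 16241 genes tested. All 5 copies passed the filter on low counts at 19 months and 2 of them at 3 months, *Gm6969* and *Gm11847*.

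**Figure D2:**
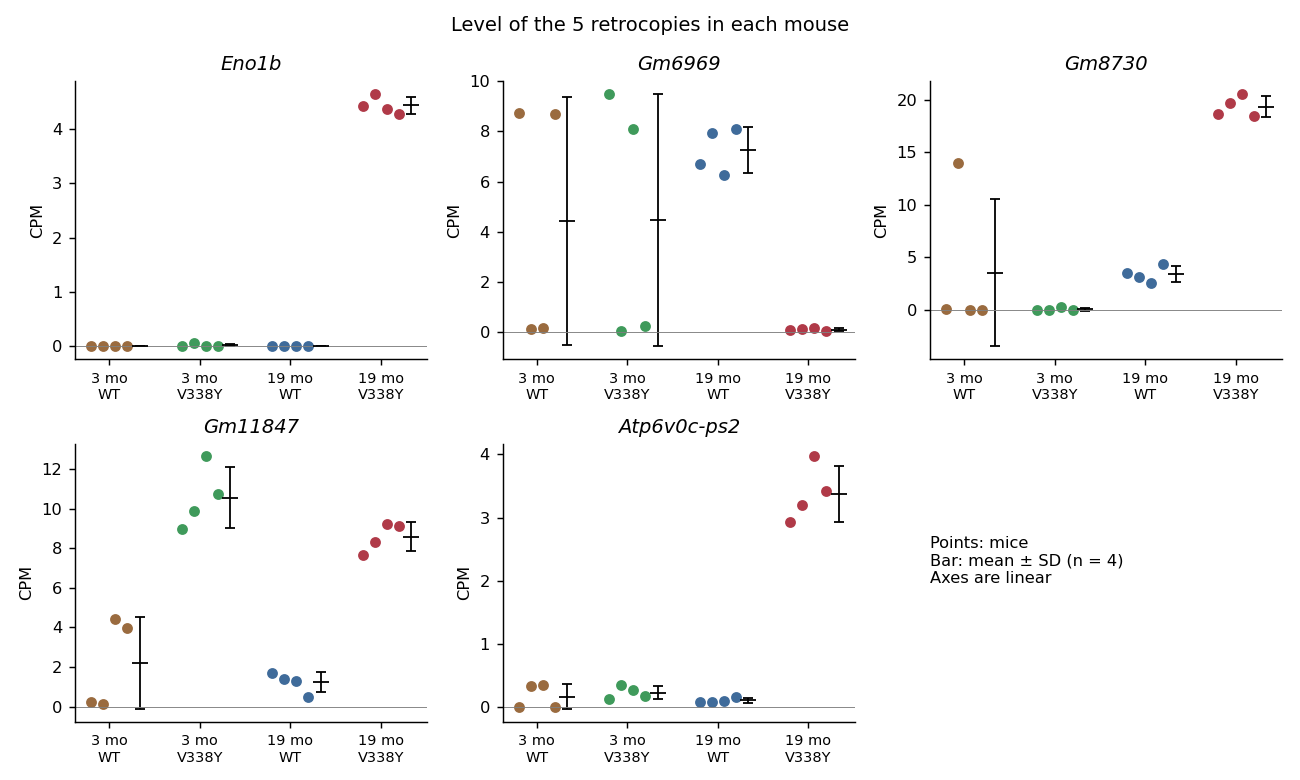
Level of each retrocopy in CPM on linear axes. Points are mice, and bars are the mean and SD of 4 mice. At 19 months the groups do not overlap for any of the 5, whereas at 3 months *Gm6969* lies high in 2 mice and low in 2 mice of each genotype.

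*Gm6969*, the copy of *Cox7a2l*, was the only one of the 5 that was lower in V338Y mice at 19 months. At 19 months it had 83, 96, 58 and 48 counts in wild-type mice 12 to 15 and 1, 2, 3 and 1 counts in V338Y mice 17 to 20. It was thus clearly present in 4 of 4 wild-type mice and at or under 3 counts in 4 of 4 mutants, at 7.25 ± 0.908 CPM against 0.113 ± 0.0414 CPM (SD, n = 4), which is at least 34.4-fold lower in V338Y mice with the mutants set at a floor of 3 counts per library. At 3 months it had 71, 2, 2 and 101 counts in wild-type mice 9 to 12 and 149, 1, 115 and 4 counts in V338Y mice 13 to 16. Here it was high in 2 mice and nearly absent in 2 mice of each genotype, and the group means were 4.44 ± 4.95 and 4.47 ± 5.03 CPM. Both states of *Gm6969*, present and nearly absent, thus occurred within each genotype at 3 months.

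In the mice that had it, *Gm6969* took similar shares of its pair. It made up 7.23% to 9.38% of the counts of *Gm6969* and *Cox7a2l* together in the 4 wild-type mice at 19 months, and 8.61% to 9.80% in the 4 mice with it at 3 months. The 4 shares at 19 months averaged 8.40% ± 1.07 (SD, n = 4). In the other 8 mice the share was 0.0509% to 0.268%.

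*Eno1b*, the copy of *Eno1*, had 44, 70, 84 and 70 counts in the 19-month-old V338Y mice and 0 counts in 11 of the other 12 mice, with 1 count in V338Y mouse 14. A count of 0 allows up to 3 counts, so *Eno1b* was at least 13.5-fold higher in V338Y than in wild-type mice at 19 months, at 4.44 ± 0.159 CPM (SD, n = 4). Its share of the pair was 1.27% to 1.40% in those 4 mice, a mean of 1.33% ± 0.0564. It was at least 24.3-fold higher in V338Y mice at 19 months than in those at 3 months. The summed choroid plexus markers differed widely among the same 4 mice, with 2225, 2257, 148 and 253 CPM in mice 17 to 20, where *Eno1b* was at 4.28 to 4.66 CPM.

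*Atp6v0c-ps2*, the copy of *Atp6v0c*, was likewise clearly present in the 19-month-old V338Y mice alone. It had 29, 48, 76 and 56 counts in V338Y mice at 19 months and 1 count in each of the 4 wild-type mice, which is at least 10.2-fold higher in V338Y mice. In CPM this was 3.38 ± 0.443 in V338Y against 0.110 ± 0.0412 in wild-type mice (SD, n = 4). At 3 months it had 0 to 5 counts in wild-type and 2 to 7 counts in V338Y mice, with overlapping groups. It made up 2.52% to 3.17% of the counts of the pair in the 19-month-old mutants and 0% to 0.201% in the other 12 mice.

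*Gm8730*, the copy of *Rplp0*, had counts in both genotypes at 19 months, at different levels. At 19 months it had 185, 295, 394 and 301 counts in V338Y mice and 44, 38, 24 and 26 counts in wild-type mice, that is 19.3 ± 0.985 and 3.42 ± 0.755 CPM (SD, n = 4), a ratio of 5.65. Its share of the pair lay between 13.03% and 15.03% in these mutants and 1.53% to 2.75% in the wild-type mice. At 3 months wild-type mouse 10 had 212 counts, a share of 9.93% (95% Wilson interval 8.73% to 11.3%, for counting error only). The other 7 mice had 0 to 4 counts, so the ratio of the means at 3 months, 42.7-fold lower in V338Y mice, rests on mouse 10. With mouse 10 the V338Y over wild-type ratio was 0.0234. Without it the remaining wild-type mice had 0 or 1 counts and were set at the floor of 3 counts. The ratio then became a lower bound of 0.278, from which no direction can be read.

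*Gm11847*, the copy of *Hnrnpa3*, followed the genotype at both ages. At 19 months it had 76, 125, 177 and 149 counts in V338Y mice and 21, 17, 12 and 3 counts in wild-type mice, a ratio of 7.01 between 8.59 ± 0.737 and 1.23 ± 0.507 CPM (SD, n = 4). At 3 months it had 141, 196, 180 and 181 counts in V338Y mice and 2, 2, 50 and 46 counts in wild-type mice 9 to 12, a ratio of 4.82. With 1 mouse left out, this ratio ranged from 3.67 without wild-type mouse 10 to 7.31 without wild-type mouse 11. The wild-type mice at 3 months thus fell into a pair near 0 and a pair at an intermediate level. Its share of the counts of *Gm11847* and *Hnrnpa3* was 13.97% to 18.48% in the 8 mutants. In wild-type mice it was 7.19% and 6.12% in mice 11 and 12 and 0.442% and 0.225% in mice 9 and 10 at 3 months, and 0.896% to 2.97% at 19 months.

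**Figure D3:**
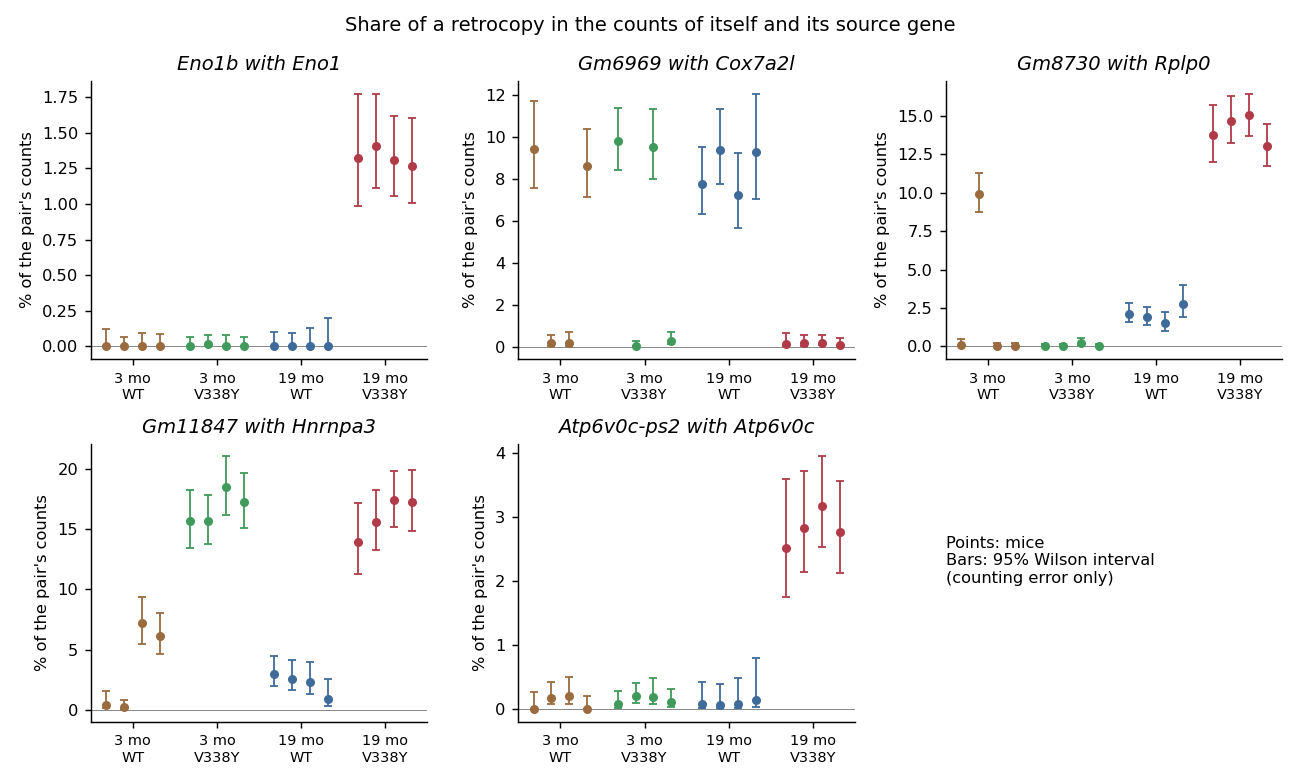
Share of each retrocopy in the summed counts of itself and its source gene, in percent, for 16 mice. Points are mice and bars 95% Wilson intervals, which cover counting error only. *Gm6969* sits near 9% or near 0, *Gm11847* takes an intermediate share of 6.12% and 7.19% in 2 of the wild-type mice at 3 months, and *Eno1b* and *Atp6v0c-ps2* rise above 1% only in the 19-month-old V338Y mice.

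Without V338Y mouse 19, the library with the most skeletal muscle RNA, the ratios at 19 months were 5.53 for *Gm8730*, 6.83 for *Gm11847*, at least 13.5 for *Eno1b*, at least 9.64 for *Atp6v0c-ps2* and at most 0.0315 for *Gm6969*. Without V338Y mouse 14, the library with few cerebellum genes, the ratio at 3 months was 4.92 for *Gm11847* and 1.34 for *Gm6969*.

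Per kilobase of annotated exon, the mean levels of these copies were below their source genes. In the 19-month-old V338Y mice *Gm8730* reached 20.3 ± 1.03 CPM per kb beside 70.9 ± 2.29 for *Rplp0*, and *Gm11847* reached 7.67 ± 0.659 beside 8.33 ± 0.297 for *Hnrnpa3* (SD, n = 4). The annotated exons of *Hnrnpa3* sum over many transcripts to 5396 bases against 1119 for *Gm11847*, so the per-length level of *Hnrnpa3* depends on which of them are used. *Eno1b* and *Atp6v0c-ps2* were at 2.37 ± 0.0847 and 7.27 ± 0.953 CPM per kb, beside 61.4 ± 0.452 for *Eno1* and 34.3 ± 1.65 for *Atp6v0c*.

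The source genes themselves were not used to choose the copies and were tested with edgeR's quasi-likelihood test with Benjamini-Hochberg adjustment over all genes. At 19 months 3 of the 5 passed the threshold of an adjusted p under 0.05, beside 3.12% of all genes tested, and each of the 3 moved against its copy. *Rplp0* fell by 0.47 on the log2 scale in V338Y mice (standard error 0.040, adjusted p = 1.152e-09, edgeR), from 162 ± 4.97 to 118 ± 3.80 CPM, and was lower in 4 of 4 mutants than in any wild-type mouse. *Hnrnpa3* fell by 0.29 (standard error 0.052, adjusted p = 0.0008823, edgeR), from 54.8 ± 1.46 to 45.0 ± 1.60 CPM. *Cox7a2l* rose from 79.1 ± 1.64 to 88.9 ± 2.29 CPM, which is 0.17 on the log2 scale with a standard error of 0.044 (adjusted p = 0.0276, edgeR). Its adjusted p was 0.0616 with DESeq2, and the call was lost in 5 of 8 edgeR fits with 1 mouse left out, with an adjusted p of up to 0.128 without wild-type mouse 13. *Eno1* and *Atp6v0c*, whose copies take small shares, had log2 fold changes of 0.05 and -0.01 (adjusted p = 0.569 and 0.937, edgeR). Copy and source match in most of their bases, but the share of 100-base windows of a copy found in its source differed. It was 89.4% for *Gm11847*, 46.9% for *Gm6969* and 9.24% for *Gm8730*. The data used here are counts without reads, so whether a source gene changed in RNA or in the reads assigned to it was not tested.

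At 3 months none of the 5 source genes passed the threshold in edgeR or DESeq2, 1 had an unadjusted p under 0.05, and 0.0616% of all genes were called. *Hnrnpa3*, whose copy was higher in V338Y mice at that age too, had a log2 fold change of -0.15 (adjusted p = 0.926, edgeR). The test of whether the genotype effect differed between the ages did not pass for any source gene. For *Rplp0* that difference was -0.49 on the log2 scale (adjusted p = 0.0638, edgeR interaction test over 16831 genes).

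The counts of copy and source were also summed, to see how much of the difference in a source gene the pair as a whole kept. For *Hnrnpa3* and *Gm11847* the sum at 19 months was 56.0 ± 1.29 CPM in wild-type and 53.6 ± 0.904 CPM in V338Y mice (SD, n = 4), with overlapping groups, while *Hnrnpa3* alone dropped by 9.79 CPM and *Gm11847* gained 7.36 CPM. For *Cox7a2l* and *Gm6969* the sums were 86.3 ± 1.26 and 89.0 ± 2.27 CPM, again overlapping, as *Cox7a2l* gained 9.82 CPM and *Gm6969* dropped by 7.14 CPM. At 3 months *Cox7a2l* was at 84.2, 92.3, 87.5 and 76.9 CPM in the 4 mice with *Gm6969*. It was at 88.0, 94.4, 98.8 and 88.3 CPM in the 4 mice without *Gm6969*. These values overlap, with the lowest in a mouse that had the copy and the highest in a mouse that did not. For *Eno1* and *Atp6v0c* the log2 ratio of V338Y over wild-type mice at 19 months was 0.05 and -0.02 alone and 0.07 and 0.02 with the copy. The sum of *Eno1* and *Eno1b* was at 306.3 to 329.2 CPM in wild-type and 332 to 337.6 CPM in V338Y mice, without overlap, whereas *Eno1* alone overlapped. These sums include genes chosen for their values, so they are given without a test.

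For *Rplp0* the groups were apart both alone and in the sum. A second annotated copy of *Rplp0*, *Gm9625* (chromosome 13, 67810246 to 67811200), also had counts, and it rose in V338Y mice at 19 months from 1.22 ± 0.111 to 5.24 ± 0.278 CPM (log2 fold change 2.10, standard error 0.187, adjusted p = 2.806e-09, edgeR). *Rplp0* with both copies was at 167 ± 4.13 CPM in wild-type and 142 ± 3.13 CPM in V338Y mice, still without overlap, as *Rplp0* fell by 44.5 CPM where the copies gained 19.9. At 3 months wild-type mouse 10, the mouse with *Gm8730*, had the lowest *Rplp0* of its group (127 CPM) and the most *Gm9625* (5.42 CPM, 82 counts beside 0 to 8 in the other 3). Adding both copies to *Rplp0* brought the SD of that group from 14.3 to 4.90 CPM. *Rplp0* also varied where copies were near 0, with 129 CPM in V338Y mouse 15 against 147 to 164 CPM in the other V338Y mice of its age. However, that mouse was also the lowest of its group for *Eno1* (324.5 CPM), *Cox7a2l* (76.9 CPM), *Atp6v0c* (146.8 CPM) and *Rplp1* (223.1 CPM). It was the highest for *Hnrnpa3* (55.8 CPM). A low level in mouse 15 was thus not particular to *Rplp0*.

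**Figure D4:**
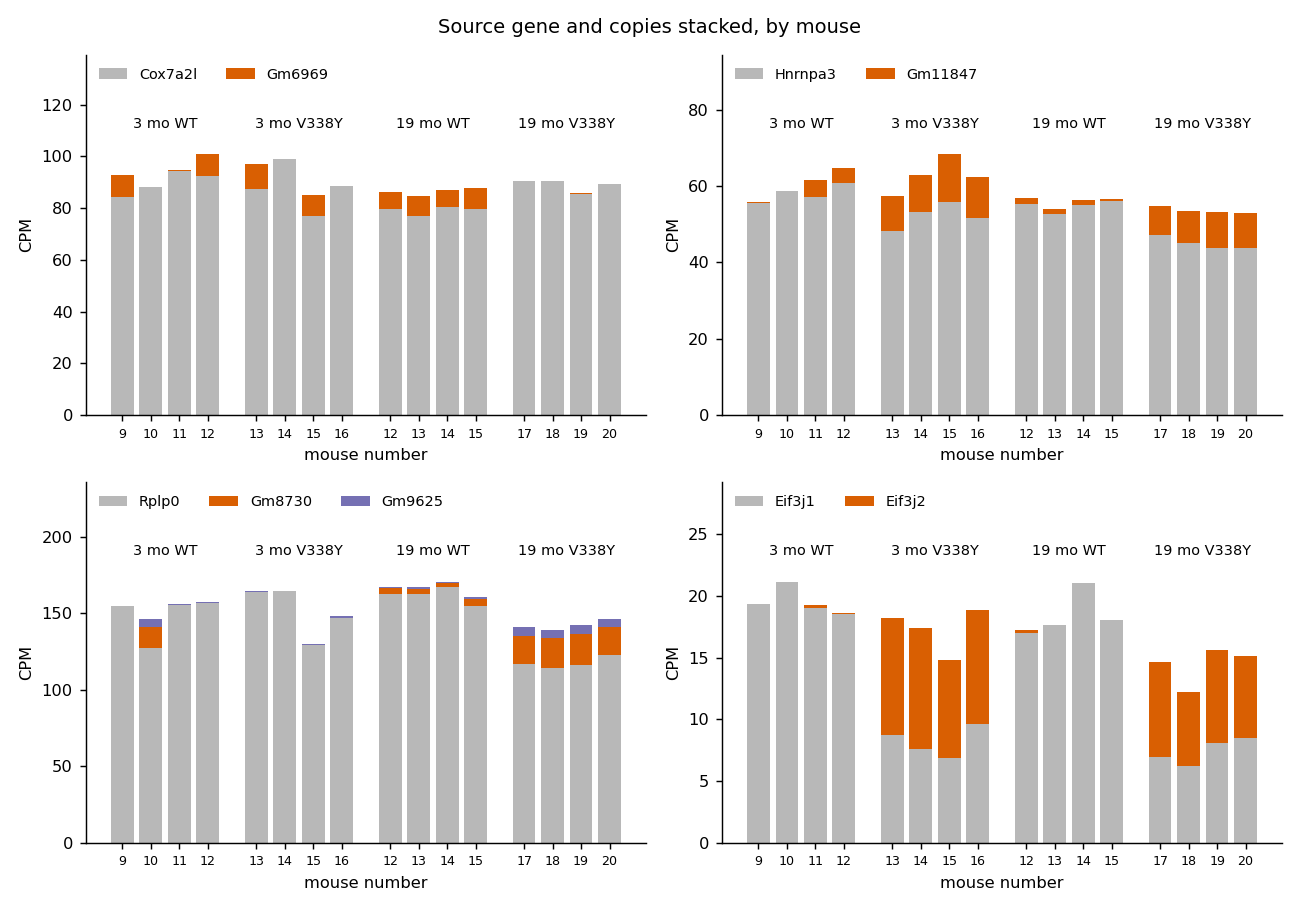
CPM of 4 source genes (grey) with their copies stacked on top (orange, and purple for *Gm9625*), 1 bar a mouse, with mouse numbers on the x axis. The tops of the bars for *Hnrnpa3* and *Cox7a2l* overlap between the genotypes at 19 months, at 52.9 to 56.9 and 84.7 to 90.5 CPM, whereas those for *Rplp0* stay lower in the V338Y mice. *Eif3j1* and *Eif3j2* were added after their values were seen.

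Relatives of the source genes that did not match the copies at 80% identity were tested beside them. Of 11 such genes (the other enolases, the other stalk proteins and other subunits of the membrane sector of the V-ATPase), 1 rose in V338Y mice at 19 months and none fell, beside 3.12% of all genes called. Their median log2 fold change was 0.06, beside -0.00 over all genes. The called gene was *Eno2*, the neuronal enolase (0.16 with a standard error of 0.039, adjusted p = 0.0145, edgeR). *Rplp1* and *Rplp2*, the partners of *Rplp0* in the stalk, had log2 fold changes of 0.04 and 0.18 (adjusted p = 0.700 and 0.136, edgeR). At 3 months, when 0.0616% of all genes were called, 0 of the 11 were called by edgeR or DESeq2 and 0 had an unadjusted p under 0.05.

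Genes around the copies were tested as well. Within 1 Mb on either side of the 5 loci, 40 genes were tested at 19 months and 2 were called, *Luc7l2* and *Ubn2*, both lower in V338Y mice. Both lie near *Atp6v0c-ps2*, where they made up 13.3% of 15 genes tested. The median absolute log2 fold change there was 0.163, beside 0.082 over all genes. Over all genes 3.12% were called. At 3 months 42 were tested and 0 called by edgeR or DESeq2, with 2 at an unadjusted p under 0.05. *Klf11*, a transcription factor gene 12264 bases from *Gm6969*, had a log2 fold change of -0.10 at 19 months (adjusted p = 0.648, edgeR), and *Fam92a*, 60818 bases from *Gm11847*, one of 0.11 (adjusted p = 0.333, edgeR). *Cdh11*, the single tested gene near *Gm8730*, had one of -0.05 (adjusted p = 0.643, edgeR). Around the source genes, added after the values were seen, *Gcn1l1*, 1527 bases from *Rplp0*, rose by 0.24 on the log2 scale (adjusted p = 0.0002847, edgeR) while *Rplp0* fell.

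By Pearson's r of log2 CPM over the 16 mice, the gene most like *Eno1b* was *Atp6v0c-ps2* (r = 0.952), a pair that was chosen for the same contrast. Next for *Atp6v0c-ps2* came *Gm9825* (r = 0.882) and *Rbpj-ps3* (r = 0.879), processed pseudogenes that also lie on chromosome 6. They start at 7982541 and 46529354, where *Atp6v0c-ps2* starts at 37806086. The 3 genes most like *Gm11847* were *Pla2g4e* (r = 0.914), *Mapkbp1* (r = 0.887) and *Exd1* (r = 0.868). All 3 lie on chromosome 2, between 7.4 and 8.1 Mb from *Mrps5*, the mutated gene. *Hnrnpa3* lies on chromosome 2 as well but much farther from it, at 75659261 to 75669407, where *Mrps5* is at 127587222 to 127606829. *Pla2g4e*, a phospholipase gene, had 687 to 938 counts in V338Y mice at 3 months and 35, 125, 299 and 292 counts in wild-type mice 9 to 12, so the same wild-type mice, 11 and 12, were the intermediate ones as for *Gm11847*. The genes most like *Gm8730* and *Gm6969* were *Wsb2-ps* (r = 0.932), another processed pseudogene, and *Esco1* (r = 0.817). Between copy and source gene, r was -0.685 for *Gm6969*, -0.667 for *Gm8730*, -0.567 for *Gm11847*, -0.461 for *Atp6v0c-ps2* and -0.324 for *Eno1b*. These 16 points share age, genotype and library and are no independent evidence of a link.

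Calls between the genotypes were also counted by their distance from *Mrps5*. At 3 months 10 genes were called, 7 of them among the 254 genes tested within 15 Mb of *Mrps5* and 1, *Cd59a*, elsewhere on chromosome 2, the 15 Mb having been set after the values were seen. The 2 on other chromosomes were *Eif3j2* and *Gm3650*, both on chromosome 18. *Eif3j2* and *Eif3j1* are closely related genes for a subunit of translation factor eIF3, and *Eif3j1* lies within those 15 Mb. At 3 months 2.76% of the genes tested within 15 Mb were called, beside 0.0616% of all genes, and at 19 months 39 of 256, or 15.2%, beside 3.12%. *Eif3j2* had 0 to 2 counts in wild-type and 113 to 194 counts in V338Y mice at 3 months, and 0 to 3 against 76 to 144 counts at 19 months. *Eif3j1* fell by 1.24 on the log2 scale at 3 months (adjusted p = 0.0002126, edgeR) and by 1.29 at 19 months (adjusted p = 3.082e-10, edgeR). The sum of both was 19.6 ± 1.103 CPM in wild-type and 17.3 ± 1.78 CPM in V338Y mice at 3 months, with overlapping groups, and 18.5 ± 1.72 and 14.4 ± 1.49 CPM at 19 months, without overlap (SD, n = 4). This pair was named after its values were seen, and whether the mutant mice carry other alleles in this region was not tested.

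Processed pseudogenes as a class give the background for the copies. Of 140 tested at 19 months, 14 were called by edgeR (9 higher and 5 lower in V338Y mice), which is 10%, and without the listed copies 10 of 136, or 7.35%, beside 3.12% of all genes. The median log2 fold change of the class was -0.12, beside -0.00 over all genes. Among the called processed pseudogenes that are not listed here, those with the largest change, without overlap and at a mean of 50 or more normalized counts, were *Gm9625* and *Rps13-ps1*. *Rps13-ps1*, a copy of a ribosomal protein gene, fell from 6.77 ± 1.61 to 2.64 ± 0.593 CPM (log2 fold change -1.39, adjusted p = 1.153e-05, edgeR). At 3 months 0 of 162 were called by edgeR or DESeq2, with 11 at an unadjusted p under 0.05 in edgeR.

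Over all 16 mice, a gene was called switch-like when its highest mouse had at least 2 CPM, its lowest at most 3 counts, and 2 neighbouring mice in the order of levels were at least 2 apart on the log2 scale. This held for 52 of 16831 genes (0.309%), and for 8 of 183 processed pseudogenes (4.37%), among them *Gm6969*, *Gm8730* and *Atp6v0c-ps2*. The listed copies were chosen from their values in these mice, and without them it held for 5 of 179 processed pseudogenes (2.79%). *Eno1b* met it too and *Gm11847*, with its intermediate mice, did not. The widest gaps outside the sex chromosomes were those of *Prl*, *Gabra6*, *Cbln3*, *Eno1b* and *Crtam*, of which *Gabra6* and *Cbln3* are granule cell genes of the cerebellum and *Prl* encodes a pituitary hormone.

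Among the other switch-like pseudogenes, several were high in single mice at 3 months. *Gm11223* had 779 counts in wild-type mouse 9 at 3 months and 2 to 9 counts in the other 7 mice, but 39 to 119 counts in each of the 8 mice at 19 months. *Gm10036* had 156 counts in the same mouse, 0 or 1 in the other 7, and 9 to 36 at 19 months. *Rps13-ps1* had 152 counts in wild-type mouse 11, 186, 310 and 264 counts in V338Y mice 13, 14 and 16, 0 in the other 4, and 33 to 96 at 19 months. *Gm5815* was the reverse of *Eno1b* and *Atp6v0c-ps2*, with 25, 16, 20 and 8 counts in wild-type mice at 19 months and 0 or 1 in the other 12 mice. *Gm11223*, *Gm10036* and *Rps13-ps1* were thus either clearly present or nearly absent in a given mouse at 3 months, and in CPM their levels at 19 months lay between those 2 states in each of the 8 mice.

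The spread within groups differed between the ages. The SD of log2 CPM of *Gm6969* at 3 months was 2.81 in wild-type mice and 2.91 in mutants, and at 19 months 0.18 and 0.23, beside a median over all genes of 0.12 and 0.16 at 3 months and 0.12 and 0.10 at 19 months. For *Gm8730* in wild-type mice it was 3.16 at 3 months and 0.30 at 19 months, and for *Gm11223* 3.90 and 0.26. *Gm5815* had 0.14 in wild-type mice and 0.06 in mutants at 3 months, against 0.34 and 0.28 at 19 months. *Gm10036* in mutants went from 0.26 to 0.38. However, *Gm5815* had 1 count in every mouse at 3 months and 0 or 1 in the 19-month-old mutants. *Gm10036* had 0 or 1 counts in the 3-month-old mutants, and *Gm6969* had 1 to 3 in the 19-month-old mutants. At such counts, with a prior count of 2, the SD says little about the spread of the RNA. These genes were picked for gaps between mice, so their spread is a description. The source genes *Cox7a2l* and *Rplp0* had an SD of 0.07 and 0.15 in wild-type mice at 3 months. The relatedness of the mice at each age is not given in the sources used here, and its part in these values was not tested.

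**Figure D5:**
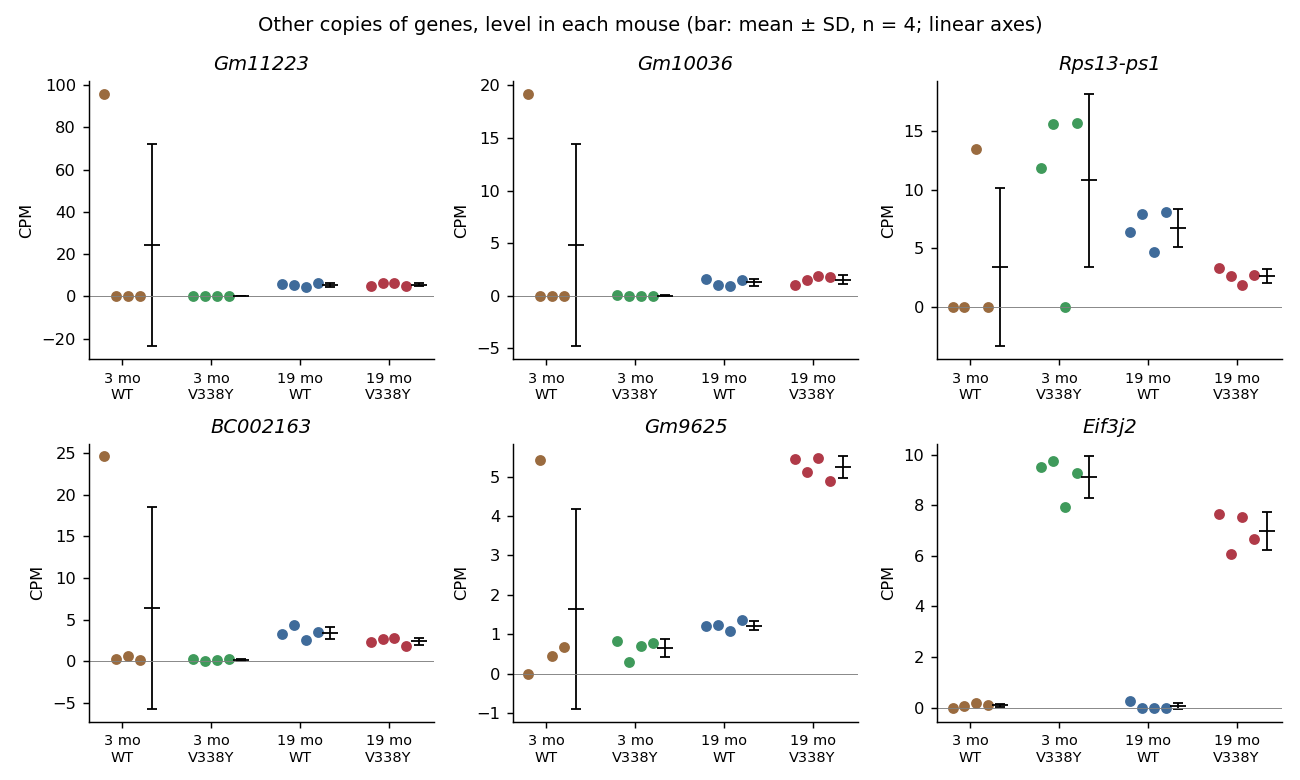
CPM of 5 further annotated copies and of *Eif3j2*, on linear axes, with points for mice and bars for the mean and SD of 4 mice. *Gm11223*, *Gm10036* and *BC002163* are high in wild-type mouse 9 alone at 3 months and at even levels in the 8 mice at 19 months, and *Gm9625* is high in wild-type mouse 10 and in the 4 V338Y mice at 19 months.

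Between the ages, 62.8% of genes tested were called in wild-type and 48.8% in V338Y mice, so a call for a source gene is read against these shares. *Atp6v0c* fell by 0.58 in wild-type and by 0.50 in V338Y mice on the log2 scale (adjusted p = 3.494e-11 and 2.981e-05, edgeR), and *Eno1* fell by 0.22 in wild-type mice (adjusted p = 2.833e-05, edgeR). In wild-type mice *Gm6969*, *Gm8730* and *Gm11847* overlapped between the ages, at ratios of 1.63, 0.967 and 0.559 of 19 over 3 months. The ratio of *Gm8730* rests on mouse 10, with 212 counts at 3 months. The other wild-type mice had 0 or 1 counts at that age, against 24 to 44 counts at 19 months. The ratio of *Gm6969* averages 71, 2, 2 and 101 counts at 3 months, against 48 to 96 at 19 months. That of *Gm11847* averages 2, 2, 50 and 46 counts, against 3 to 21. Neither a change nor a steady level with age is read from these ratios. In V338Y mice *Eno1b*, *Gm8730* and *Atp6v0c-ps2* were higher at 19 months without overlap, *Gm11847* overlapped at a ratio of 0.813, and *Gm6969* overlapped with 1 to 3 counts against 1 to 149. In bulk RNA, fewer cells of a type and less RNA per cell cannot be told apart for any of these levels.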

How the data were processed

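RNA from the brain (cortex) of 16 mice, 4 per genotype and age, was sequenced by the authors with single-end reads. The authors deposited estimated counts per Ensembl gene without normalization, as whole numbers of at most 4 significant digits (all 1495 values of 10000 or more end in 0). The paper names RSEM, Ensembl 75 and GRCm37, whereas the submitters' notes name STAR 2.4.2a, featureCounts, bcl2fastq 1.8.4 and GRCm38. Which program made the counts could not be settled, and whether reads that match several genes were shared out or dropped is not known here. Genes were matched by identifier to GENCODE M21 (GRCm38), which placed 37693 of 39179. The 2 annotations differ, and positions and sequences are those of M21. No genome sequence was used, so windows were compared with annotated transcripts only, where a search of the genome had been planned.

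Groups came from the labels. The members and lists were chosen with earlier results of these data known. A gene entered a comparison if 2 or more mice of either group had 10 or more counts, and was tested in R 4.3.3 with edgeR 4.0.16 (TMM, robust quasi-likelihood test, Benjamini-Hochberg adjustment). Nothing shows that the mice are unrelated, and p-values measure the spread between them. CPM used total counts times TMM factors of the 16 libraries, and log2 CPM a prior count of 2. Where every mouse of a group had at most 3 counts, the group was set at 3 counts per library and the ratio given as a bound. Copies were found with blastn at 80% identity over 70% of the length, the protein-coding gene with the best match being the source. Named genes were the 5 copies, their sources, matching genes, family members, the 2 nearest genes, the 3 most alike, and pseudogenes and switch-like genes by the rules stated. Others were named after their values were seen, as were the sums, the neighbours of the source genes and the leaving out of mice for shares. Alternatives were DESeq2 1.42.0, other scaling and filters, a fit to the 16 mice together and omission of each mouse in turn. The edgeR and DESeq2 fits between the genotypes were tested on simulated counts, and the other steps were not. Genes that switch between mice of the same group were not simulated.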

Additional observations from a re-analysis of the deposited data

Results flagged for a closer look

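In groups of 4 mice, 1 mouse was set apart if its gap to the next took up more than Dixon's 95% limit of the range of the group. Of 54 groups of values examined, 7 had such a mouse. Chance flags about 1 in 20, but most of these genes were chosen for gaps between mice, so the number is not read against that rate. All 7 were in 3-month-old wild-type mice. Mouse 10 was set apart for *Gm8730* (14 CPM), for *Gm9625* (5.42 CPM) and, as the lowest of its group, for *Rplp0* (127 CPM). Mouse 9 was set apart for *Gm11223* (96 CPM), *Gm10036* (19.2 CPM) and *BC002163* (24.6 CPM), and mouse 11 for *Rps13-ps1* (13.5 CPM).

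The difference of the genotype effects between the ages was past the threshold for 9 of 16831 genes, and for none of the source genes and other copies examined.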

How the results depend on the processing

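Counts of called genes depended on the fit. At 19 months the 512 genes became 791 with no filter and 116 with all 16 mice in one fit, and 287 to 611 with 1 mouse left out (287 without V338Y mouse 19, 294 without wild-type mouse 13). The 14 processed pseudogenes became 4 with at least 10 counts in every library, 5 in the fit of all mice and 12 to 15 with 1 mouse left out. At 3 months the 10 genes became 26 with DESeq2, 20 with no filter, 23 in the fit of all mice and 6 to 13 with 1 mouse left out (6 without wild-type mouse 12), and the 0 processed pseudogenes became 1 in the fit of all mice and 0 to 1 with 1 mouse left out. Between the ages, processed pseudogenes went from 31 to 81 with no filter and 12 with at least 10 counts in every library in wild-type mice, and from 39 to 65 and 13 in V338Y mice. A stricter filter tests fewer genes, and for the other changes the cause was not tested.

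The log2 fold changes of *Rplp0* and *Hnrnpa3* at 19 months kept their direction and side of the threshold under every alternative run. That of *Cox7a2l* stayed at 0.17 but lost the threshold with DESeq2 and in the fit of all mice (adjusted p = 0.0616 and 0.332), and ranged from 0.15 to 0.19 with 1 mouse left out, which lost it in 5 of 8 fits. With age, *Rplp0* in wild-type mice (0.14) lost it on library size only (0.05), in the fit of all mice (0.13) and without any one of 3-month mouse 10 and 19-month mice 12, 13 and 14 (0.07 to 0.17 with 1 mouse left out), whereas *Hnrnpa3* in wild-type mice (-0.17) and *Eno1* in V338Y mice (-0.19) passed it on library size only, the latter also without 3-month mouse 15 (-0.16 to -0.08 with 1 mouse left out). With 1 mouse left out, the bounds on the V338Y over wild-type ratios at 19 months moved. The lower bounds ranged from 12.3 to 16.4 for *Eno1b* and 9.39 to 12.5 for *Atp6v0c-ps2*, and the upper bound from 0.0248 to 0.0315 for *Gm6969*. These bounds depend in part on the depth of the libraries set at the floor. At 3 months that of *Gm6969* (1.01) ranged from 0.629 to 1.49 and turned below 1 without wild-type mouse 10 (0.761) or 11 (0.763) or V338Y mouse 13 (0.629) or 15 (0.736).

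Windows of 50 bases gave lower shares found in no other gene, from 5.42% in *Gm11847* to 30.7% in *Gm6969*. No paired analysis was possible because the mice were sacrificed for sampling, so each belonged to a single group. At these depths, *Eno1b* and *Atp6v0c-ps2* could not be measured below 3 counts per library.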
